A study of Mus musculus with 6 samples.

Results

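The genes described here are 40 genes of glycolysis and of the transcriptional response to low oxygen, measured in cultured mouse bone marrow mesenchymal stromal cells (MSCs) that carried or lacked the inflammasome sensor Nlrp3. They were chosen by gene symbol, as an enzyme, transporter or regulator of glycolysis or as a known target or regulator of the hypoxia-inducible factors, and all 40 symbols were found among the 55401 genes of the expression table. By role they are 4 glucose and lactate transporters, 17 glycolytic enzymes, 4 regulators of glycolytic flux, 4 oxygen-sensing factors and hydroxylases and 11 other hypoxia-response genes. Aldoa occurred on 2 rows, and its second row (ENSMUSG00000114515) stayed at or below 1.43 FPKM (fragments per kilobase and library size, a level per length) and was not used further.

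Glycolysis splits glucose into pyruvate in the cytosol, and cells short of oxygen reduce that pyruvate to lactate and export it. The alpha subunits of the hypoxia-inducible factors (HIF), among them Hif1a and Epas1, are hydroxylated on prolines when oxygen is present and then degraded; when oxygen falls they persist, pair with Arnt and bind sequences with the core ACGTG or GCGTG near glycolytic and other target genes. Bacterial lipopolysaccharide (LPS), sensed by TLR4, is known to raise glycolysis and Hif1a transcription in macrophages also when oxygen is not limiting.

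The comparison set 3 libraries of Nlrp3 knockout (NLRP3-/-) MSCs against 3 libraries of wild-type (WT) MSCs. Both were labelled C57/B6J, were grown from femoral marrow in low glucose medium and, per the treatment protocol, received 3 µg/mL LPS for 24 h, so that the data compare the genotypes under LPS and hold no unstimulated cells. The labels give neither the age of the mice nor the kind of knockout allele, and nothing in them tells if a group's libraries are separate animals, cultures or repeats of a single culture. The sample titles mark the libraries of each group Day1, Day2 and Day3, while another label gives day 1 for all 6; what the days count is not stated, and the spread within a group may be across days. The p-values are therefore about the spread among these libraries alone. Nlrp3 itself had 0 estimated counts in each knockout library, against 730, 502 and 444 in the WT libraries (2.76, 1.68 and 1.86 FPKM).

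Library totals lay between 53.2 and 66.3 M estimated counts, and 11713 to 12089 genes reached an FPKM of 1. Mitochondrially encoded genes took 3.18%, 2.90% and 1.77% of the counts in the knockout libraries and 2.31%, 2.45% and 2.47% in the WT libraries. Stromal markers were mixed: Col1a1 averaged 1301 ± 75.4 FPKM in knockout and 1726 ± 86.5 FPKM in WT libraries (SD, n = 3 each, as for the next values). Thy1 averaged 11.8 ± 1.19 FPKM in knockout and 134 ± 6.22 FPKM in WT libraries, and Pdgfra averaged 2.96 ± 0.227 FPKM in knockout and 30.2 ± 1.71 FPKM in WT libraries. The MSC marker Nt5e was low in both groups, at 2.35 ± 0.269 FPKM in knockout and 0.183 ± 0.0681 FPKM in WT libraries, and Lum did not reach 1 FPKM in any library. Other stromal markers were well expressed in both groups. Mean FPKM in knockout and WT libraries was 657.5 and 854.3 for Col1a2, 179.9 and 313.7 for Col3a1, and 61.98 and 89.01 for Pdgfrb. Cd44, at 49.75 and 54.54 FPKM, overlapped between the groups. Of the 17 stromal genes listed, 15 were tested, with 2 called higher and 12 lower. The 2 called higher were Nt5e, which reached 1 FPKM only in the knockout libraries, and Twist1, at mean FPKM of 19.26 in knockout and 11.58 in WT libraries. All stromal genes named here except Col1a1 were named after their values were seen. Macrophage genes were also present in both groups, with a summed level over 30 marker genes of 1855 to 2118 FPKM in knockout and 810 to 919 FPKM in WT libraries, and are given further on beside the results.

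Of the 40 genes, 39 reached an FPKM of 1 in at least 3 of the 6 libraries and were tested with limma on log2(FPKM + 1), with Benjamini-Hochberg adjustment over all 12136 genes tested and a threshold of 0.05. Hk2, Pfkfb3, Epas1, Egln1 and Car9 were higher in Nlrp3 knockout cells, while Slc16a3, Eno2, Adm, Ndufa4l2, Bnip3l, P4ha2 and Ddit4 were lower, and 27 genes did not pass. The 5 higher genes compare with 10.4% of all tested genes called higher, and the 7 lower genes with 9.20% called lower. Taken in either direction, 12 of 39 (30.8%) were called, against 19.6% of all tested genes. These genes and the lists below were chosen with earlier results of these data known, so such shares are no test of a list. The median log2 fold change of the 39 genes was -0.09, against 0.01 over all tested genes, and single values ran from -4.03 to 1.33. On the log2(FPKM + 1) scale, Ndufa4l2, Adm, Car9 and Pfkfb3 were called with a log2 fold change of at least 1 in size; 4.32% of all tested genes met that rule. Fold changes of FPKM + 1 understate the change of genes at low levels. Ratios of mean FPKM are therefore given beside them for called genes with a group under a few FPKM. The libraries of the genotypes did not overlap in 19 of the 39 genes (48.7%), against 36.7% of all tested genes; the knockout libraries lay below the WT libraries in 12 of these and above them in 7. Entry into the test depended on 1 genotype in some genes: Car9 reached 1 FPKM only in the knockout libraries, and Eno2 in 3 WT libraries and 1 knockout library, so a difference was built into their passing.

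**Figure D1:**
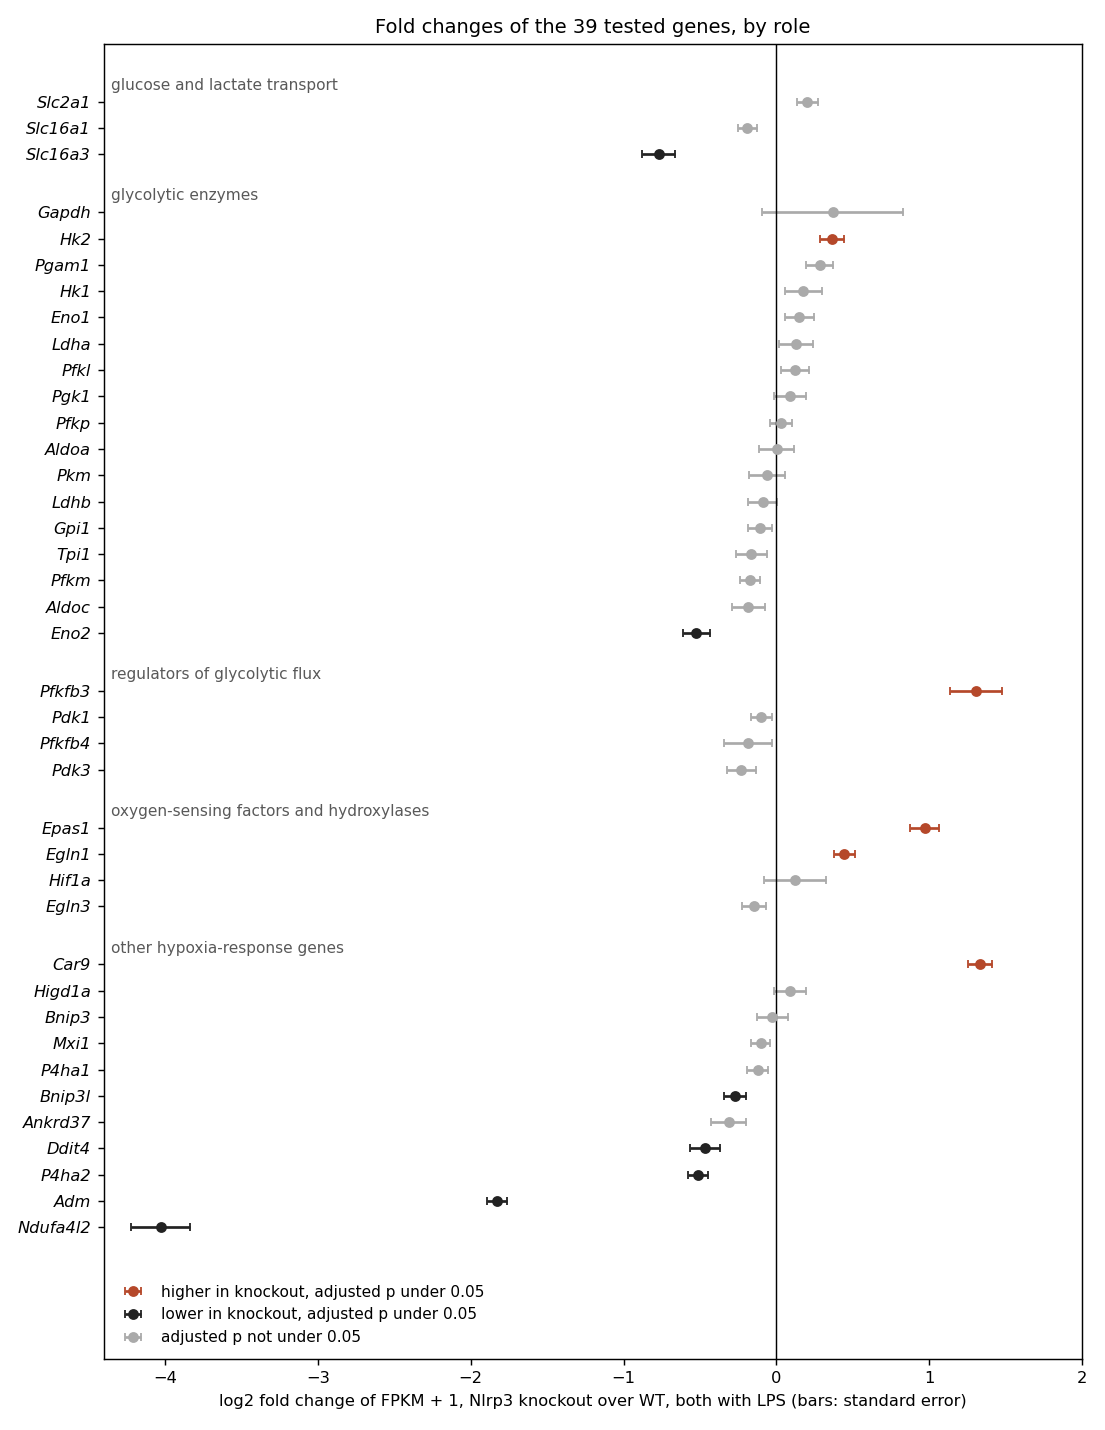
Log2 fold change of FPKM + 1 (Nlrp3 knockout over WT, both with LPS; bars are limma's standard errors) for the 39 tested genes, grouped by role and sorted within each role. Most glycolytic enzymes lie close to 0, while Pfkfb3, Epas1 and Car9 lie near or above 1 and Ndufa4l2 lies near -4.

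The promoters of Adm, Car9, Pfkfb3 and Slc16a3 are shown because these were the called genes with the largest fold changes that have an entry in the RefSeq promoter table (mouse build GRCm38.p6). Each sequence is written 5′ to 3′ on the strand of the gene and covers 250 bases before and 50 bases after the annotated start. The windows are chr7:110627407-110627706 on the plus strand for Adm, chr4:43506776-43507075 on the plus strand for Car9, chr2:11553880-11554179 on the minus strand for Pfkfb3 and chr11:120948817-120949116 on the plus strand for Slc16a3. Capitals mark every ACGTG or GCGTG, the cores of the sequence that HIF dimers bind, also where the letters lie on the other strand (CACGT or CACGC as printed).
Adm: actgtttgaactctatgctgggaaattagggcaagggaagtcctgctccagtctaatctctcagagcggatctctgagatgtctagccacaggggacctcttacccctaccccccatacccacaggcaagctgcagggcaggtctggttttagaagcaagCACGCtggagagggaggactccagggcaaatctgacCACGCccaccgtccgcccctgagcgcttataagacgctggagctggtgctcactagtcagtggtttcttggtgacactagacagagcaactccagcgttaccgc
Car9: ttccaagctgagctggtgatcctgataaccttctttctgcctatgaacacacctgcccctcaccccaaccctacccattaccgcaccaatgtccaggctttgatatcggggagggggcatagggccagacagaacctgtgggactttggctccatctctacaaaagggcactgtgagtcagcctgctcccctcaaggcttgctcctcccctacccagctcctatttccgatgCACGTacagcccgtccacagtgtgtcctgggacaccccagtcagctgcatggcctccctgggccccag
Pfkfb3: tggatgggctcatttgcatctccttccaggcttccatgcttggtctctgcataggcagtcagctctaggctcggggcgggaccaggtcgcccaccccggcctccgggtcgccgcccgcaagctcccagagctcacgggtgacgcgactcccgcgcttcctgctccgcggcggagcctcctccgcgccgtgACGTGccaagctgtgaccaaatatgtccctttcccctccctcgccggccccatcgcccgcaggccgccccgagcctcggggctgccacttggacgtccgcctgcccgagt
Slc16a3: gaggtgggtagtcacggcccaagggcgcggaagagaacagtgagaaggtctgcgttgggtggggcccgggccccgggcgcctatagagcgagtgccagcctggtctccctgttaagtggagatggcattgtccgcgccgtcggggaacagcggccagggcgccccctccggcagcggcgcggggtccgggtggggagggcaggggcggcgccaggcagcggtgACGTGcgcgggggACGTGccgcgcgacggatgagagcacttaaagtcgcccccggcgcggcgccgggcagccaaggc
Adm held GCGTG at 2 places on the opposite strand, 90 and 54 bases before the start. Car9 held 1 ACGTG on the opposite strand, 18 bases before the start, and Pfkfb3 held 1 ACGTG on its own strand, 60 bases before the start, in the window nearer to the start of the gene in the expression table of the 2 RefSeq windows. The other Pfkfb3 window, not shown, held 2 ACGTG and 2 GCGTG. Slc16a3 held ACGTG at 27 and at 14 bases before the start. This RefSeq start of Slc16a3 lies 587 bases from the start of the gene in the expression table. At least 1 of these motifs stood in the windows of 33 of the 36 genes with an entry, counting all their windows, and in 42 of their 51 windows (82.4%), against 43.8% of all 32851 promoter windows of the table. By call, a motif was found in 4 of 4 genes called higher, 4 of 5 called lower and 25 of 27 not called. These matches describe letters in a window and hold no measurement of binding in these cells. The genes were chosen partly as known HIF targets, so their share against that of all promoters is no test. Both cores contain CG, and the base content of the windows was not compared.

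Among the transporters, Slc16a3, which exports lactate from glycolytic cells, was lower in Nlrp3 knockout cells. Slc16a3 (ENSMUSG00000025161, GRCm38 chromosome 11, 120948480 to 120958775) had 21.1, 23.1 and 28.1 FPKM in the knockout libraries, against 41.6, 41.3 and 41.6 FPKM in the WT libraries. All 3 knockout libraries lay below the narrow range of the WT libraries. The log2 fold change was -0.77 ± 0.11 (SE), with a limma adjusted p of 0.0031. Slc2a1, the widespread glucose transporter, stood at 62.2 to 69.2 FPKM in knockout and 55.6 to 58.6 FPKM in WT libraries, and Slc16a1, a lactate and pyruvate transporter, at 20.6 to 22.0 and 24.1 to 25.7 FPKM in the same groups. Neither passed the test (adjusted p = 0.0914 and 0.0824), although in both genes the groups did not overlap.

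Slc2a3, a high-affinity glucose transporter of neurons and blood cells, was too low for the test. It had 0.20, 0.22 and 0.20 FPKM in the knockout libraries, against 0.73, 0.67 and 0.70 FPKM in the WT libraries. The estimated counts behind these levels were 102, 103 and 96 in the knockout and 346, 357 and 299 in the WT libraries. All knockout values lay below all WT values; in the alternative test on the estimated counts with edgeR, the log2 fold change was -1.78 with an adjusted p of 0.0004.

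The 17 glycolytic enzymes showed few differences between the genotypes: Hk2 was higher, Eno2 was lower and 15 did not pass the test. The 2 calls of 17 (11.8%) compare with 19.6% of all tested genes, and the groups did not overlap in 4 of the 17 (23.5%), against 36.7% of all tested genes. The median log2 fold change of the enzymes was 0.03. Hk2, the inducible hexokinase that traps glucose as its phosphate, had 17.9, 20.2 and 19.8 FPKM in the knockout libraries, against 13.8, 15.7 and 14.9 FPKM in the WT libraries. The lowest knockout library stood above the highest WT library. Its log2 fold change was 0.36 ± 0.08 (SE; limma adjusted p = 0.0205), and the call was lost when knockout library 2 (adjusted p = 0.0627), WT library 1 (0.0878) or WT library 3 (0.0718) was left out. Hk2 lies on chromosome 6, 82725025 to 82774454 (ENSMUSG00000000628). Hk1, the hexokinase of most tissues, stood at 23.2 to 28.1 FPKM in knockout and 21.2 to 27.0 FPKM in WT libraries, and these ranges overlapped.

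Eno2, the enolase known from neurons, was at a low level in both genotypes. It had 1.02, 0.95 and 0.86 FPKM in the knockout libraries, against 1.70, 1.69 and 2.00 FPKM in the WT libraries (ENSMUSG00000004267, chromosome 6, 124760053 to 124769621). The ranges did not overlap, and the mean was 1.9 times higher in WT. On the FPKM + 1 scale the log2 fold change was -0.52 ± 0.09 (SE), with a limma adjusted p of 0.0066. Eno1, the enolase of most cells, was at 395 to 472 FPKM in knockout and 381 to 407 FPKM in WT libraries, with overlapping ranges (adjusted p = 0.35).

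The main enzyme of nearly every step was abundant in both genotypes. Pgk1, which makes the first ATP of the pathway, averaged 685 ± 57.7 FPKM in knockout and 643 ± 32.3 FPKM in WT libraries (SD, n = 3 each, as for the means that follow). Pkm, the pyruvate kinase gene, averaged 631 ± 81.0 FPKM in knockout and 655 ± 22.5 FPKM in WT libraries. Ldha, which reduces pyruvate to lactate, averaged 550 ± 66.7 FPKM in knockout and 500 ± 17.6 FPKM in WT libraries. These 3 genes had the highest levels per length among the enzymes' own rows in each genotype, leaving out copies of Gapdh and Eno1 on other rows, and their differences were smaller than the spread between the knockout libraries. Aldoa, the main aldolase, averaged 463 ± 60.8 FPKM in knockout and 460 ± 14.1 FPKM in WT libraries. Tpi1, the triose phosphate isomerase, averaged 224 ± 25.9 FPKM in knockout and 250 ± 11.97 FPKM in WT libraries. Gpi1, the glucose phosphate isomerase, averaged 115 ± 7.31 FPKM in knockout and 123 ± 6.10 FPKM in WT libraries. None of these 6 passed the test, with adjusted p-values between 0.342 for Tpi1 and 0.993 for Aldoa.

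Pgam1, the phosphoglycerate mutase, came closest to the threshold among the abundant enzymes. It had 354, 332 and 390 FPKM in the knockout libraries, against 301, 288 and 293 FPKM in the WT libraries. The groups did not overlap, with a log2 fold change of 0.28 ± 0.09 (SE) and a limma adjusted p of 0.0709, which DESeq2 on the estimated counts gave as 0.04. Of the 3 phosphofructokinase genes, the committed step of the pathway, Pfkl was the highest with 59.9 to 72.3 FPKM in knockout and 56.4 to 62.5 FPKM in WT libraries. Pfkm stood at 13.5 to 15.3 FPKM in knockout and 16.0 to 16.4 FPKM in WT libraries (adjusted p = 0.133, or 0.0454 without knockout library 3), and Pfkp at 4.04 to 4.45 and 3.96 to 4.30 FPKM in the same groups. Ldhb, the other lactate dehydrogenase subunit, stood at 10.9 to 13.5 FPKM in knockout and 12.4 to 13.8 FPKM in WT libraries, and Aldoc, a second aldolase, at 1.04 to 1.3 and 1.23 to 1.76 FPKM. Among these 5, only the ranges of Pfkm did not overlap, and none passed the test.

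**Figure D2:**
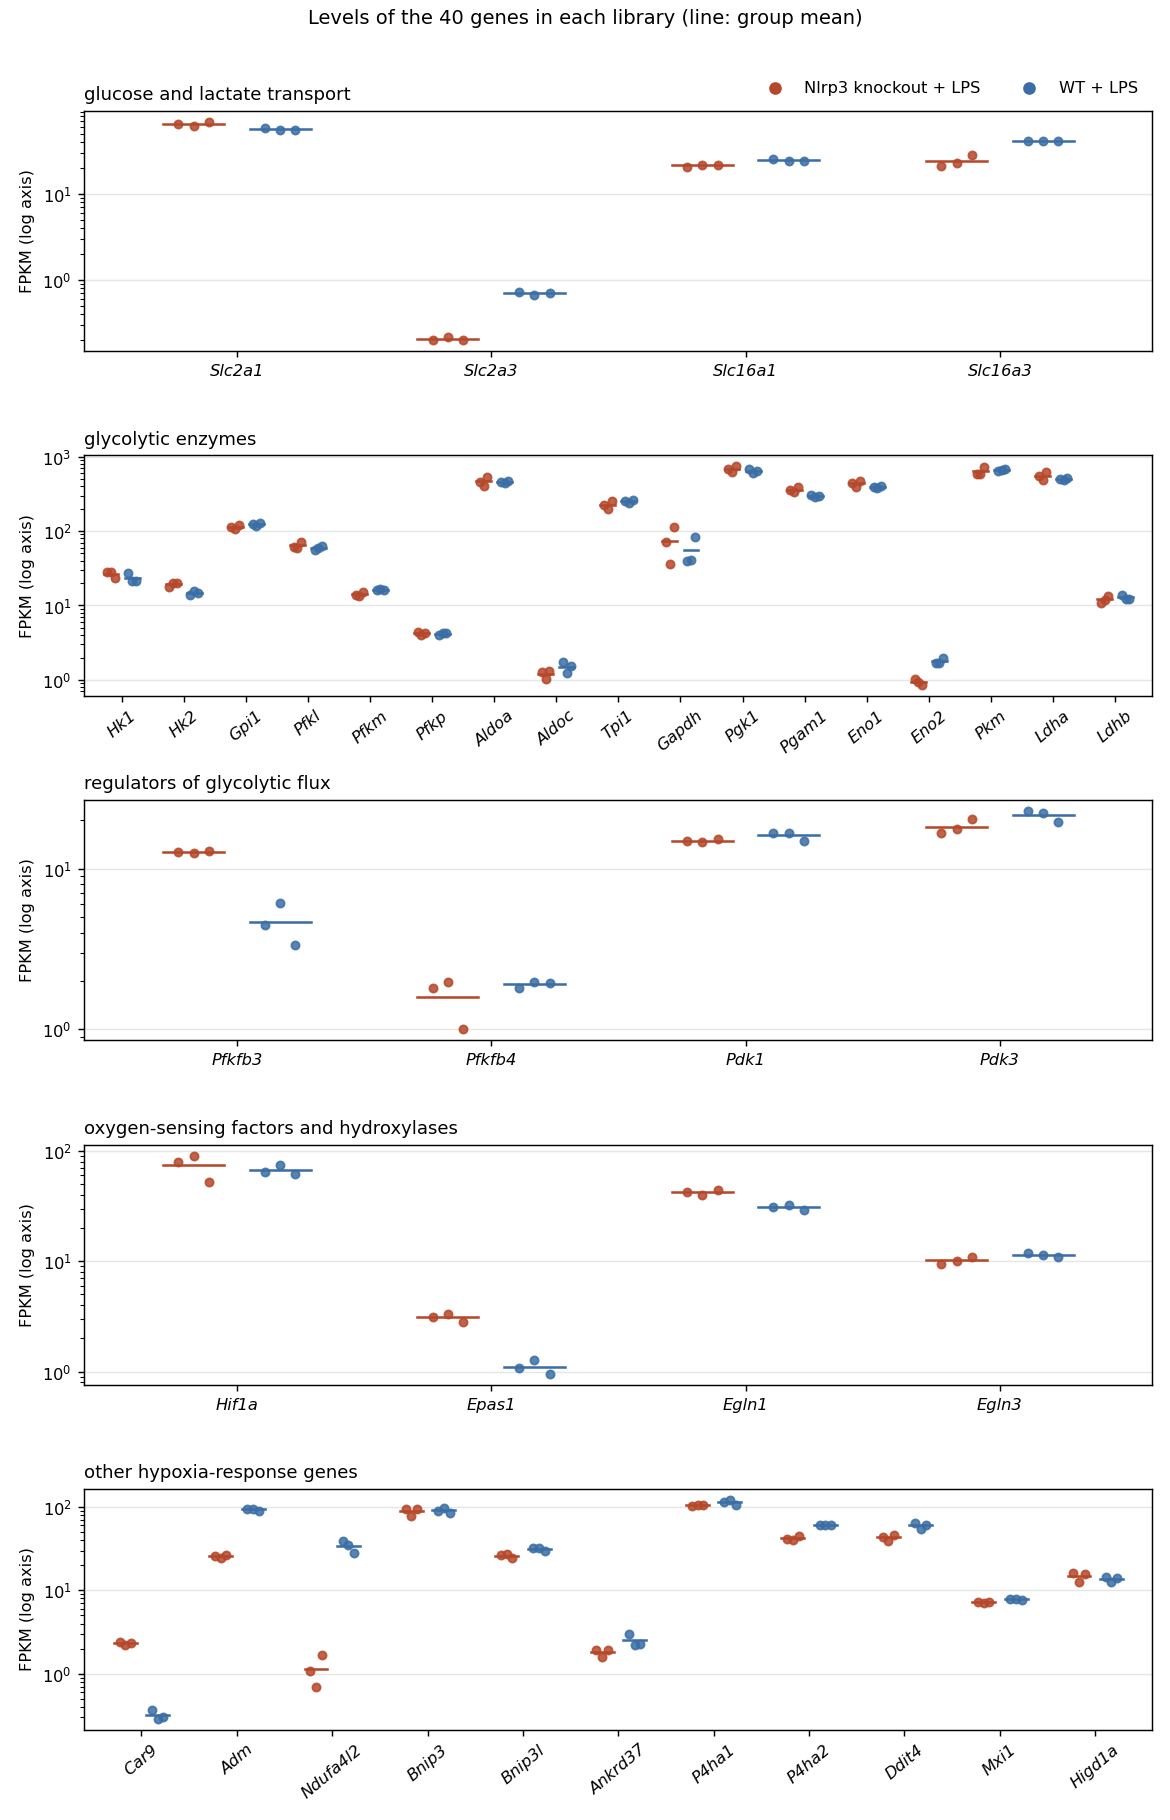
FPKM (log axis) of each of the 40 genes in each library, by role, with the 3 Nlrp3 knockout libraries left of the 3 WT libraries and a line at each group mean; all had LPS. The genotypes separate most in Ndufa4l2, Car9, Adm, Slc2a3, Pfkfb3 and Epas1, and overlap in 13 of the 17 glycolytic enzymes.

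Gapdh, the enzyme between the aldolase products and Pgk1 and a common reference gene, had the widest spread within a genotype of the 17 enzymes. Its row gave 71.6, 36.5 and 114 FPKM in the knockout libraries, against 39.5, 41.0 and 84.4 FPKM in the WT libraries, with coefficients of variation of 52.4% and 46.4%. The ranges overlapped (log2 fold change 0.37 ± 0.46, SE; adjusted p = 0.64). The genome holds many near-identical copies of Gapdh, mostly processed pseudogenes. A search of annotated transcripts found 90 rows of the table with at least 95% identity to Gapdh over at least 50% of their length, at other loci. These copies held 88.4%, 93.3% and 83.6% of the combined counts of Gapdh and copies in the knockout libraries, and 94.1%, 93.4% and 88.7% in the WT libraries. The Gapdh row alone thus had 329, 167 and 522 CPM (estimated counts scaled by the library total) in knockout and 180, 188 and 386 in WT libraries. With the copies added, the totals were 2828, 2491 and 3184 CPM in the knockout and 3072, 2836 and 3421 in the WT libraries. The log2 fold change then turned to -0.14 (adjusted p = 0.512), an alternative chosen after the data were seen. Reads from Gapdh and from its copies cannot be told apart in these counts, and the level of the Gapdh row is uncertain in every library.

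**Figure D3:**
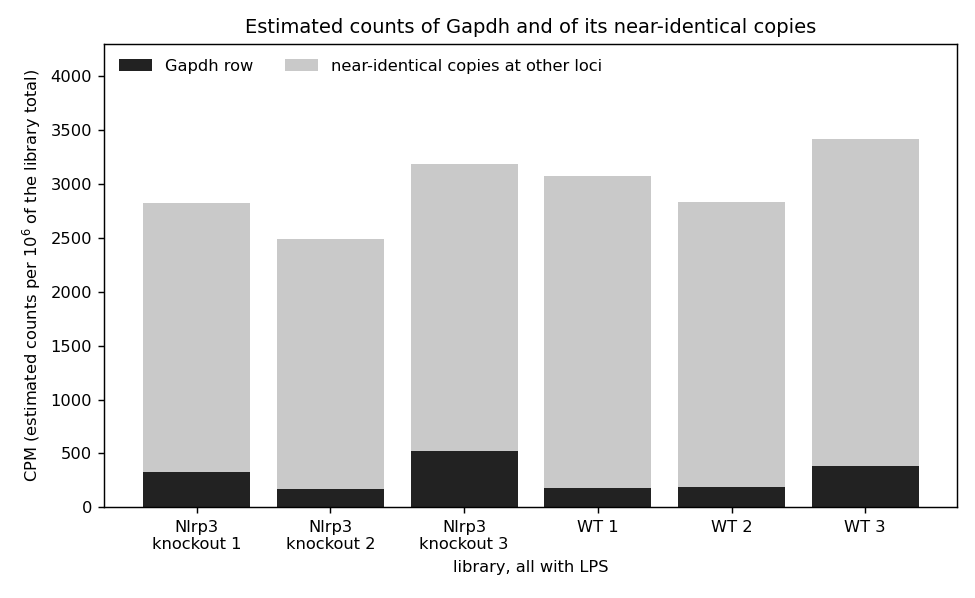
CPM (estimated counts scaled by the library total) of the Gapdh row (dark) and of its near-identical copies at other loci (light), stacked from 0, in the 3 Nlrp3 knockout and the 3 WT libraries. The row alone ranges from 167 to 522 CPM, while the stacked totals lie between 2491 and 3421.

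Copies took smaller shares elsewhere. For Eno1 they held 7.02% to 13.7% of the combined counts over the 6 libraries. Its copy Eno1b, named after its values were seen, was listed at 2.23, 91.6 and 162 FPKM in the knockout and 73.4, 74.8 and 90.5 FPKM in the WT libraries. The first knockout library was thus far below all others for that copy. The pseudogene Gm4735, another Eno1 copy, was at 132, 98.6 and 30.5 FPKM in the knockout and 110, 116 and 135 FPKM in the WT libraries. For Pgam1 the share was 7.84% to 11.2% and for Bnip3l 6.51% to 7.56%, and it was at most 2.79% in the other 8 genes with a copy (Gpi1, Tpi1, Pgk1, Pkm, Ldha, Ldhb, Bnip3 and Higd1a). The search found no such copy for 28 of the 40 genes.

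The enzymes also ordered the libraries within each genotype. Knockout library 3 was the highest of its group in 13 of 17 enzymes and knockout library 2 the lowest in 13 of 17; over all tested genes these libraries were highest and lowest in 41.9% and 38.2%. In the WT group, library 3 was the highest in 10 of 17 and library 2 the lowest in 11 of 17, against 32.5% and 35.4% of all tested genes. On their own rows, the 17 enzymes took 1.47%, 1.34% and 1.67% of all counts in the knockout libraries and 1.42%, 1.39% and 1.49% in the WT libraries. With copies added, the shares were 1.758%, 1.623% and 1.992% in the knockout and 1.752%, 1.704% and 1.849% in the WT libraries. Either way the genotypes overlapped and the spread was wider among knockout libraries. Knockout library 3 also had the lowest share of mitochondrially encoded counts, 1.77%; the part of this in the order of the enzymes was not tested.

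**Figure D4:**
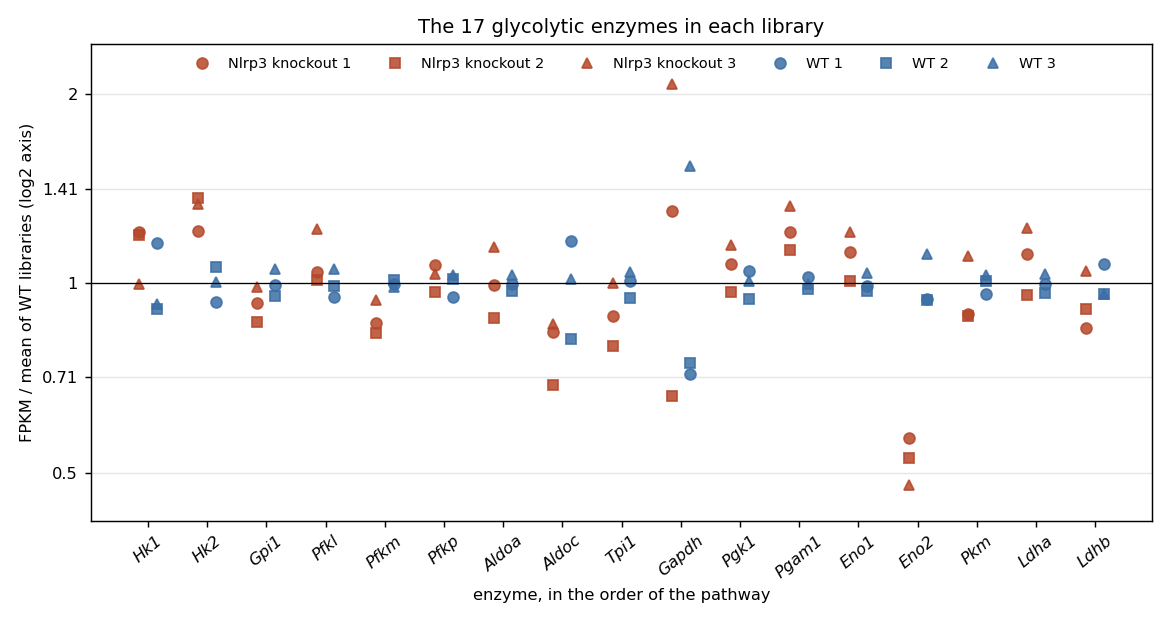
FPKM of each glycolytic enzyme divided by the mean of the WT libraries (log2 axis), with Nlrp3 knockout libraries (left) and WT libraries (right) at each gene and 1 symbol per library. Triangles of the knockout group, its library 3, stand highest in 13 of 17 enzymes, and only Hk2, Pfkm, Pgam1 and Eno2 show no overlap between genotypes.

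Of the 4 regulators of glycolytic flux, Pfkfb3 was higher in Nlrp3 knockout cells and 3 did not pass. Pfkfb3 makes the allosteric activator of phosphofructokinase and is induced by hypoxia and inflammatory signals. It had 12.7, 12.4 and 12.8 FPKM in the knockout libraries, against 4.44, 6.08 and 3.34 FPKM in the WT libraries (ENSMUSG00000026773, chromosome 2, 11471433 to 11554077). The knockout libraries were tightly grouped above a wider WT range. The ratio of means was 2.74, and the log2 fold change was 1.31 ± 0.17 (SE; limma adjusted p = 0.00236). Pfkfb4, a related bifunctional enzyme, was at 1.81, 1.98 and 1.00 FPKM in the knockout and 1.82, 1.97 and 1.95 FPKM in the WT libraries, so knockout library 3 alone stood apart. The pyruvate dehydrogenase kinases, which hold back the entry of pyruvate into mitochondria, overlapped between the genotypes: Pdk1 stood at 14.7 to 15.3 FPKM in knockout and 14.8 to 16.7 FPKM in WT libraries. Pdk3 stood at 16.7 to 20.2 FPKM in knockout and 19.6 to 22.8 FPKM in WT libraries (adjusted p = 0.16).

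Among the oxygen-sensing genes, Epas1 and Egln1 were higher in Nlrp3 knockout cells, while Hif1a and Egln3 did not pass. Epas1, a HIF alpha subunit known from endothelium and also expressed by macrophages, had 3.15, 3.33 and 2.82 FPKM in the knockout libraries, against 1.07, 1.27 and 0.95 FPKM in the WT libraries (ENSMUSG00000024140, chromosome 17, 86753700 to 86833410). Every knockout library was above every WT library, the ratio of means was 2.83, and the log2 fold change was 0.97 ± 0.10 (SE; limma adjusted p = 0.000731). Egln1, the main prolyl hydroxylase that marks HIF alpha subunits for degradation, had 42.4, 40.2 and 44.2 FPKM in the knockout libraries, against 31.0, 32.0 and 29.4 FPKM in the WT libraries (ENSMUSG00000031987, chromosome 8, 124908587 to 124949324). Its groups did not overlap either, with a log2 fold change of 0.44 ± 0.07 (SE; limma adjusted p = 0.00452). Hif1a was the more abundant alpha subunit in both genotypes, with 79.0, 90.6 and 52.3 FPKM in the knockout and 63.7, 74.6 and 61.1 FPKM in the WT libraries. The knockout libraries enclosed the whole WT range, and the difference was not larger than that spread (adjusted p = 0.735). Egln3, a hydroxylase that is itself a HIF target, stood at 9.53 to 10.99 FPKM in knockout and 10.8 to 11.96 FPKM in WT libraries (adjusted p = 0.255).

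The 11 other hypoxia-response genes held most of the lower calls: Ndufa4l2, Adm, P4ha2, Ddit4 and Bnip3l were lower in Nlrp3 knockout cells, Car9 was higher, and 5 did not pass. The 6 calls of 11 (54.5%) compare with 19.6% of all tested genes. They include Car9, whose entry into the test depended on the knockout libraries. The knockout libraries lay below the WT libraries in 8 of the 11 and above them in 1 (81.8% without overlap); over all 12136 tested genes they lay below in 2183 and above in 2276 (36.7% without overlap). The median log2 fold change was -0.27.

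Ndufa4l2, a HIF target whose product lowers the activity of respiratory complex I, showed the largest difference of all 40 genes. It had 1.07, 0.69 and 1.70 FPKM in the knockout libraries, against 38.9, 34.7 and 27.8 FPKM in the WT libraries (ENSMUSG00000040280, chromosome 10, 127514967 to 127517053). The gene was near the lower limit of the test in all knockout libraries and well expressed in all WT libraries. The mean was 29.3 times higher in WT, and the log2 fold change was -4.03 ± 0.20 (SE; limma adjusted p = 4.06e-05). Adm, the precursor of the vasodilator peptide adrenomedullin, had 26.2, 24.4 and 26.3 FPKM in the knockout libraries, against 95.6, 95.5 and 89.2 FPKM in the WT libraries (ENSMUSG00000030790, chromosome 7, 110627661 to 110629820). Both groups were narrow and far apart, with a mean 3.65 times higher in WT and a log2 fold change of -1.83 ± 0.07 (SE; limma adjusted p = 1.66e-05).

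Smaller differences in the same direction were seen in P4ha2, Ddit4 and Bnip3l. P4ha2, a catalytic subunit of collagen prolyl hydroxylase, had 41.9, 39.8 and 44.7 FPKM in the knockout libraries, against 61.2, 60.2 and 60.3 FPKM in the WT libraries. The groups did not overlap (log2 fold change -0.52 ± 0.07, SE; limma adjusted p = 0.00213). P4ha2 (ENSMUSG00000018906, chromosome 11, 54100095 to 54131662) lies 5.41 Mb from Nlrp3, and 23.0% of the 187 tested genes within 10 Mb of Nlrp3 were called; the part of its position was not tested. Ddit4, a stress-induced inhibitor of mTOR signalling, had 44.1, 39.2 and 46.8 FPKM in the knockout libraries, against 64.8, 54.4 and 61.6 FPKM in the WT libraries (ENSMUSG00000020108, chromosome 10, 59949669 to 59951834). All knockout values were below all WT values (log2 fold change -0.47 ± 0.10, SE; limma adjusted p = 0.0174). The call of Ddit4 was lost without knockout library 1 (adjusted p = 0.0612), WT library 1 (0.0746) or WT library 3 (0.0707).

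Bnip3l, a receptor that directs mitochondria to autophagy, had 26.4, 27.2 and 24.1 FPKM in the knockout libraries, against 32.2, 32.6 and 29.5 FPKM in the WT libraries (ENSMUSG00000022051, chromosome 14, 66985239 to 67008877). It passed narrowly (log2 fold change -0.27 ± 0.07, SE; limma adjusted p = 0.0477), and leaving out any of the 6 libraries ended the call (adjusted p between 0.063 and 0.17). Its paralog Bnip3, another mitophagy receptor, was at 78.1 to 95.5 FPKM in knockout and 85.6 to 97.4 FPKM in WT libraries, and these ranges overlapped.

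Car9, the cell surface carbonic anhydrase that serves as a marker of hypoxic cells, differed in the opposite direction. It had 2.43, 2.19 and 2.35 FPKM in the knockout libraries, against 0.37, 0.29 and 0.30 FPKM in the WT libraries (ENSMUSG00000028463, chromosome 4, 43506966 to 43513729). The level was low in both genotypes, but all knockout libraries lay above all WT libraries and the mean was 7.26 times higher in knockout. Its log2 fold change was 1.33 ± 0.08 (SE; limma adjusted p = 9.21e-05). Without any 1 of the knockout libraries Car9 no longer reached the expression minimum and could not be tested.

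The remaining hypoxia-response genes did not pass. Ankrd37, a HIF target with ankyrin repeats, was at 1.59 to 1.93 FPKM in knockout and 2.22 to 3.01 FPKM in WT libraries (adjusted p = 0.117). P4ha1, the other collagen prolyl hydroxylase subunit, was at 104 to 106 FPKM in knockout and 107 to 121 FPKM in WT libraries (adjusted p = 0.297). Mxi1, an antagonist of Myc, was at 6.99 to 7.31 FPKM in knockout and 7.60 to 7.89 FPKM in WT libraries (adjusted p = 0.311). In these 3 genes the knockout libraries lay below the WT libraries without passing the test. Higd1a, a small mitochondrial protein induced by hypoxia, was at 12.8 to 16.1 FPKM in knockout and 12.7 to 14.7 FPKM in WT libraries, with overlapping ranges.

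Because FPKM is per length, the balance of related genes could be compared as the share of 1 gene in the summed FPKM of its family. In 9 of 13 families the shares did not overlap between the genotypes, 8 of them higher in knockout for the gene given first. The order within a family was set by the list, so this direction has no meaning of its own. Among single genes, 36.7% of all tested genes did not overlap, but shares are another measure and had no such background. With 3 libraries per group, the exact two-sided permutation test cannot give a p below 0.1, which all 9 reached (0.144 after adjustment over the 13 families), so none could pass the threshold. Pfkfb3 made up 87.5%, 86.2% and 92.8% of Pfkfb3 and Pfkfb4 in the knockout libraries and 70.9%, 75.5% and 63.1% in the WT libraries. Slc16a1 made up 49.4%, 48.7% and 43.9% of Slc16a1 and Slc16a3 in the knockout libraries and 38.2%, 37.1% and 36.7% in the WT libraries. Egln1 made up 80.6 ± 0.889% of Egln1 and Egln3 in knockout and 73.0 ± 0.886% in WT libraries (SD, n = 3 each). In each of these 3 families a single gene, Pfkfb3, Slc16a3 or Egln1, had passed the test on its own level. The same held for P4ha2, Eno2 and Epas1 in their families. P4ha1 made up 71.4 ± 1.14% of the prolyl hydroxylase subunits in knockout and 65.4 ± 1.42% in WT libraries, and Pfkl 77.7 ± 0.913% of the phosphofructokinases in knockout and 74.4 ± 0.969% in WT libraries. Among the genes given first in these 9 families, only Hif1a had a lower share in knockout. It made up 95.8 ± 0.838% of Hif1a and Epas1 in knockout and 98.4 ± 0.0774% in WT libraries. The level of Hif1a itself did not pass the test, while that of Epas1 was called higher. Aldoa, Eno1 and Slc2a1 each made up between 98.8% and 99.8% of their family in every library, and their shares differed by less than 1 percentage point between the genotypes. The shares of Hk1 with Hk2, Ldha with Ldhb, Pdk1 with Pdk3 and Bnip3 with Bnip3l overlapped.

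**Figure D5:**
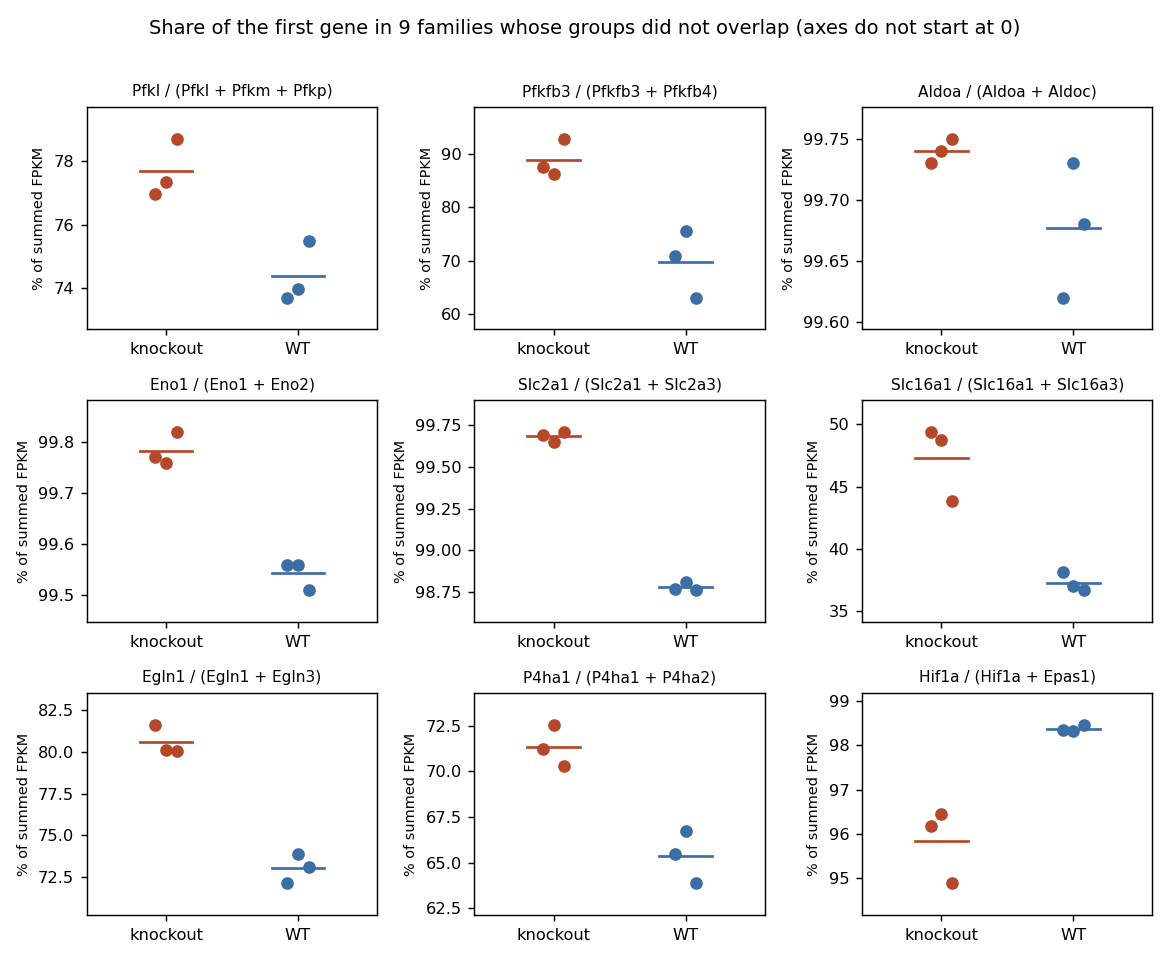
Share of the first gene in the summed FPKM of its family (percent, axes not starting at 0) for the 9 families without overlap, with Nlrp3 knockout libraries left of WT libraries, 1 point per library and a line at the mean. Pfkfb3 shows the widest separation, 88.8% in knockout and 69.9% in WT libraries, and Hif1a is the only first gene whose share is lower in knockout.

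Neighbouring pathways were read from 96 further genes, of which 77 were tested; 14 were higher and 11 lower in Nlrp3 knockout cells (32.5% called, against 19.6% of all tested genes). Among 34 other known hypoxia targets, 30 were tested, 9 higher and 5 lower, with a median log2 fold change of 0.13. These calls made up 46.7% of the 30, against 19.6% of all tested genes. The gene with the largest difference was Edn1, the precursor of the vasoconstrictor endothelin, with 18.0, 18.7 and 17.8 FPKM in the knockout libraries, against 1.97, 1.78 and 1.85 FPKM in the WT libraries. Its groups were far apart (log2 fold change 2.74 ± 0.07, SE; limma adjusted p = 3.56e-06). Other genes called in this list, named after their values were seen, included Hmox1, Plod2 and Loxl2 on the higher side. On the lower side they included Ppp1r3c, Insig2, Angptl4, Plod1 and Vegfa. Ppp1r3c reached 1 FPKM only in the WT libraries, so a difference was built into its passing. Cxcl12, Ero1a and Gbe1, likewise named afterwards, were also called higher. Cxcl12 kept its call in 0 of the 6 fits that left out a library, and Ero1a and Gbe1 each in 1. On the lower side, Insig2 kept its call in 4 of these fits and Angptl4 in 5. Vegfa, the angiogenic factor, averaged 54.9 ± 2.55 FPKM in knockout and 67.0 ± 1.97 FPKM in WT libraries (SD, n = 3 each; adjusted p = 0.026), and kept its call in only 2 of the 6 fits that left out a library (adjusted p up to 0.122).

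In the pentose phosphate pathway, which branches from glycolysis after hexokinase, 2 of 8 genes were lower and none was higher (25.0% called, near the 19.6% of all tested genes). H6pdx (H6pd in the table), the hexose phosphate dehydrogenase of the endoplasmic reticulum, had 19.5, 21.3 and 20.7 FPKM in the knockout libraries, against 51.3, 53.1 and 52.9 FPKM in the WT libraries. The groups did not overlap (log2 fold change -1.32 ± 0.06, SE; limma adjusted p = 3.57e-05). The other was G6pdx, the cytosolic enzyme of the same step, named after its values were seen, at 51.9 to 55.2 FPKM in knockout and 69.3 to 79.6 FPKM in WT libraries. Of 13 genes for the entry of pyruvate into mitochondria, Pdk4, Pdha1 and Dlat were higher and Pdp2 and Pcx lower (38.5% called). Of 28 further glycolysis genes only 14 reached the minimum, with Hk3 higher and Eno3 lower, and of 13 further HIF components 12 did, with Cited2 higher and Arnt lower. Pdha1, Dlat, Cited2 and Arnt each kept their call in only 1 of the 6 fits that left out a library. These 9 genes were likewise named after their values were seen.

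Markers of cell types moved with the genotype beside these results. For comparison, 10.4% of all tested genes were called higher and 9.20% lower. All 25 tested of 30 macrophage genes were called higher in Nlrp3 knockout cells, with a median log2 fold change of 0.95. Aif1 and Trem2, named after their values were seen, reached 1 FPKM only in the knockout libraries, so a difference was built into their passing. Each kept its call in 0 of the 3 fits without a library that could test it. Among the untested genes, Itgax, Ptprc, Clec7a and Ly86 lay above WT in knockout, while Mrc1 overlapped. The summed levels of the 30 genes were given above and none of them was at 0. Lyz2, the lysozyme of myeloid cells, averaged 1145 ± 94.3 FPKM in knockout and 463 ± 45.0 FPKM in WT libraries, and Adgre1, the F4/80 antigen, 134 ± 2.78 and 44.0 ± 2.71 FPKM in the same groups (SD, n = 3 each). Of 17 stromal genes 15 were tested, 2 higher and 12 lower, with a sum of 2251 to 2476 FPKM in knockout and 3401 to 3760 FPKM in WT libraries. In bulk RNA, fewer cells of a type and less RNA per cell cannot be told apart. Granulocyte genes summed to 15.8 to 20.6 FPKM in knockout and 11.9 to 12.8 FPKM in WT libraries (4 of 10 tested, 3 higher and 1 lower, with 3 at 0). Of the higher genes, S100a8, named after its values were seen, also reached 1 FPKM only in the knockout libraries. Lymphoid genes summed to 2.52 to 4.39 FPKM in knockout and 0.61 to 1.45 FPKM in WT libraries (1 of 7 tested, higher; 4 at 0). Endothelial genes, none of 8 tested, summed to at most 0.26 FPKM in knockout and 0.79 FPKM in WT libraries, and erythroid genes, none of 8 tested and 1 at 0, to at most 0.40 and 0.56 FPKM. The part of the macrophage and stromal markers in the higher and lower glycolysis and hypoxia-response genes was not tested.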

How the data were processed

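RNA was measured in 6 libraries, 3 Nlrp3 knockout and 3 WT, grouped by the sample titles. Per the labels' protocols, polyadenylated RNA was selected and the libraries were strand-marked with dUTP. Per the submitters' processing notes, cutadapt 1.9, HISAT2 2.0.4, StringTie 1.3.4d and the build GRCm38 were used; how counts were made and if strand was used is not given in the sources used here. Overlapping and antisense genes may therefore share counts. The authors deposited FPKM values per gene, and beside them estimated counts per gene, which were proportional to FPKM (100% of comparisons over 5837 genes within 1%), so that both carry the same information. Library totals were 53.2 to 66.3 M estimated counts.

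FPKM values were tested as log2(FPKM + 1), with a pseudocount of 1, with limma 3.58.1 in R 4.3.3 (intensity trend, two-sided) for genes at 1 FPKM or more in at least 3 libraries. The estimated counts were tested with edgeR 4.0.16 (quasi-likelihood) and DESeq2 1.42.0 as alternatives. The others were a pseudocount of 0.1, no filter, TMM-scaled and median-centred FPKM, a replicate block, each library left out, and copies added. Family shares were compared by exact permutation with scipy 1.17.1. Copies were sought with blastn 2.17.0 (at least 95% identity over 50% of the copy and 200 bases). The limma step was tested on simulated data. All 216 listed symbols were found, Ero1a and H6pdx through older names; RefSeq promoters (GRCm38.p6) matched 36 of the 40 genes (not Slc2a3, Epas1, Ndufa4l2 or Bnip3l). All 40 genes are named; of the other pathway lists, genes called with a log2 fold change of at least 1 in size; of the marker lists, the most abundant; others were named after their values were seen, as the text says. The genes and lists were chosen with earlier results of these data known.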

Additional observations from a re-analysis of the deposited data

How the results depend on the processing

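Of the 12 called genes, 9 kept their call under each of the 14 alternatives that could test them; Hk2, Ddit4 and Bnip3l did not. Bnip3l also lost its call with no filter (adjusted p = 0.066) and with its copies added (0.0527). DESeq2 called 3684 genes, against 2381 with limma, and added Pgam1 and Slc2a3. With each library left out in turn, the count of all called genes ran from 1426 to 2745, that of the 40 genes called higher from 3 to 5 (3 without knockout library 2) and lower from 5 to 7, and that of the other pathway genes from 8 to 17 higher and 6 to 12 lower. The highest counts of all genes (2745) and of other pathway genes called higher (17) came without knockout library 3, and the cause was not tested. Deviations from the group means correlated at 0.02, 0.168 and 0.096 between same-numbered libraries of the genotypes. Between differently numbered libraries they correlated at -0.171 to 0.081, and whether the replicate numbers pair the libraries was not tested. With the numbers as a replicate block 2086 genes were called, and no call among the 39 genes changed. The other pathway genes then gave 11 higher and 10 lower calls, against 14 and 11. Lost calls included Pdha1 (limma adjusted p = 0.0605), Dlat (0.0569) and Arnt (0.0573). Signs turned only in genes that were not called: Aldoa gave -0.0194 with TMM, -0.0225 with median-centred values, -0.00671 with edgeR and -0.00103 with DESeq2 (log2), Gapdh -0.139 with copies added, and with libraries left out Aldoa ran from -0.0942 to 0.0942, Gapdh from -0.0114 to 0.796, Hif1a from -0.0425 to 0.349, Bnip3 from -0.0759 to 0.0673 and Pfkp from -0.000271 to 0.0598. These causes were not tested. The FPKM minimum kept Slc2a3 out of the limma test; without the filter its adjusted p was 0.00305.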
